A study of Homo sapiens with 4 samples.

Results

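The replication-dependent histone genes supply the core histones H2A, H2B, H3 and H4 and the linker histone H1. They were taken here as the protein-coding genes of GENCODE release 44 whose symbol begins with H2AC, H2BC, H3C or H4C followed by a digit, together with H1-1 to H1-6. The rule found 70 genes among the 62218 genes of the count files, the same 70 that the annotation holds. They comprise 6 H1, 17 H2A, 19 H2B, 13 H3 and 15 H4 genes. Of the 70 genes, 63 reached at least 10 counts in at least 2 libraries and were tested, among 27632 genes tested in all.

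The material was the wild-type human embryonic stem cell line H1 in 2 states, with 2 Nanopore cDNA libraries of each. The primed cells were grown in mTeSR medium. The naïve cells had been derived from the same line and were grown in FINE medium, which holds the kinase inhibitors Dasatinib, AZD5438, SB590885, PD0325901 and Y-27632 together with LIF, Activin A and bFGF, at low oxygen. AZD5438 is an inhibitor of cyclin-dependent kinases, so the naïve libraries differ from the primed ones both in cell state and in the agents present, and these cannot be told apart. The labels do not say that the libraries of a state came from separate cultures, so the p-values measure only the spread between these libraries.

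Replication-dependent histone genes are made in bulk when DNA is copied and sit mostly in a large cluster on chromosome 6 and a smaller one on chromosome 1. Their mRNAs have no introns and, unlike other mRNAs, normally end in a short stem-loop instead of a poly(A) tail. The stem-loop is bound by SLBP, and the RNA is cut just after it by a complex that contains the U7 snRNP. Several genes encode the same protein, so the cell can draw 1 protein from many loci. All 13 H3 genes encode 1 of 2 proteins of 136 residues, shared by 10 and 3 genes, and 14 of the 15 H4 genes encode 1 protein of 103 residues, when the annotated coding sequences are translated. The 17 H2A genes encode 11 proteins, the 19 H2B genes 15 and the 6 H1 genes 6.

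The 3′ ends of these genes set them apart from the rest of the annotation. A match to the histone stem-loop at 15 or more of its 16 positions, within 150 bases after the stop codon, was found in 69 of the 70 genes and in 5 of 19849 other protein-coding genes (0.0252%). The gene without it was H2BC12L, a copy of H2BC12 on chromosome 21, which matched at 10 positions. The loop began between 23 and 68 bases after the stop codon (median 36), and the annotated canonical transcript ended a median of 5 bases behind it. The hexamer AATAAA, the usual signal for a poly(A) tail, lay within 500 bases after the stop codon in 14 of the 70 genes and in 41.0% of the other protein-coding genes. The following stem-loops with their 5 flanking bases on each side are shown because they carry the 2 stems of the family and belong to genes whose values are given in detail. They were read from GRCh38 on the strand of the gene, 5′ to 3′, with the 16 bases of the stem-loop in capitals.
H4C3, chr6:26104317-26104332, plus strand: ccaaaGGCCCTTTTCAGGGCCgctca
H4C14, chr1:149833032-149833047, plus strand: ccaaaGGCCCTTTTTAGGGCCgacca
H1-1, chr6:26017037-26017052, minus strand: ccaacGGCTCTTTTAAGAGCCaccta
H1-4, chr6:26157095-26157110, plus strand: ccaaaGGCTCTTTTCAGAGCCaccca
H2AC18, chr1:149842223-149842238, minus strand: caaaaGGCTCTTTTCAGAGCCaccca
H2BC12, chr6:27146366-27146381, minus strand: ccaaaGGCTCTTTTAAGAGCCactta
H3C4, chr6:26196789-26196804, minus strand: ccaaaGGCTCTTTTCAGAGCCaacca

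The stem differed between H4 and the other types. The sequence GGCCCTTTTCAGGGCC stood in 10 H4 genes, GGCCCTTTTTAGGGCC in 4 and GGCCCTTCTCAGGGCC in 1. Of the 54 other genes with a match, 40 carried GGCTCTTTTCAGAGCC and 9 carried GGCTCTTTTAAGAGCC, with 5 more variants in 1 gene each. H4C3 had 1 more feature that no other member had. A 20-base stretch with 18 A stood between its stop codon and its stem-loop, whereas no other member had more than 13 A in any 20 bases of its canonical transcript. The stretch is shown because H4C3 was also the member with by far the highest level.
H4C3, chr6:26104291-26104310, plus strand: aaaaaacaaaaacaaaaaaa

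The promoters differed between the types too, with H4 apart in the CCAAT box. Promoter sequences from 250 bases before to 50 bases after the RefSeq start (GRCh38.p14) were at hand for 64 of the 70 genes, not including H4C3, and were searched on both strands for the letters TATAAA (the TATA box), CCAAT (the CCAAT box) and ATTTGCAT (the octamer). None of these motifs contains another. CCAAT was present in 84.4% of the members against 34.6% of all 35116 promoters, TATAAA in 65.6% against 11.5% and ATTTGCAT in 39.1% against 1.77%. All H1, H2A, H2B and H3 promoters held CCAAT, but 3 of 13 H4 promoters did. The octamer was found in 14 of 18 H2B and 11 of 16 H2A promoters, and in no H1, H3 or H4 promoter. In 12 pairs an H2A and an H2B gene lie head to head with starts 194 to 287 bases apart. The windows of such partners overlap, so 1 octamer or other motif can count for both genes. TATAAA was spread over all types, from 3 of 6 H1 and 7 of 13 H4 promoters to 12 of 18 in H2B, 8 of 11 in H3 and 12 of 16 in H2A. The 120 bases before the start are shown for a linker histone gene, a divergent H2B gene and an H4 gene, on the strand of the gene, with the motifs in capitals.
H1-1, chr6:26017788-26017907, minus strand: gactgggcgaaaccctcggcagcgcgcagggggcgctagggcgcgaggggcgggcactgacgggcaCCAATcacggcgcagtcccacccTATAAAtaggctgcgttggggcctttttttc
H2BC12, chr6:27146856-27146975, minus strand: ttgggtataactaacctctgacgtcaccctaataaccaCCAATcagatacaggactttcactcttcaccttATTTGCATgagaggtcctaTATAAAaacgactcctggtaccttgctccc
H4C14, chr1:149832537-149832656, plus strand: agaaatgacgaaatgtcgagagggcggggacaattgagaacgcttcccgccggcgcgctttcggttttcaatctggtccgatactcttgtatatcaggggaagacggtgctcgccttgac

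Most replication-dependent histone genes had a lower level in primed than in naïve libraries. By edgeR's quasi-likelihood test, with p adjusted over all 27632 genes after Benjamini and Hochberg, 45 of the 63 members tested were lower in primed at an adjusted p under 0.05 (71.4%), 3 were higher (4.76%) and 15 were not called. Among all genes tested, 32.6% were called lower, 37.4% higher and 70.0% in either direction, so a call alone was common in these data, and it was the direction in which the members differed from the rest. The median log2 fold change of the members, primed minus naïve, was -1.61, against 0.08 over all genes. Counted over the 63 members tested, both naïve libraries lay above both primed libraries in normalised level for 52. Both primed libraries lay above for 4. The same count over all genes was not made, so these counts are not set against a background. These libraries are bulk samples, in which fewer cells that make histone mRNA and less histone mRNA per cell cannot be told apart.

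**Figure D1:**
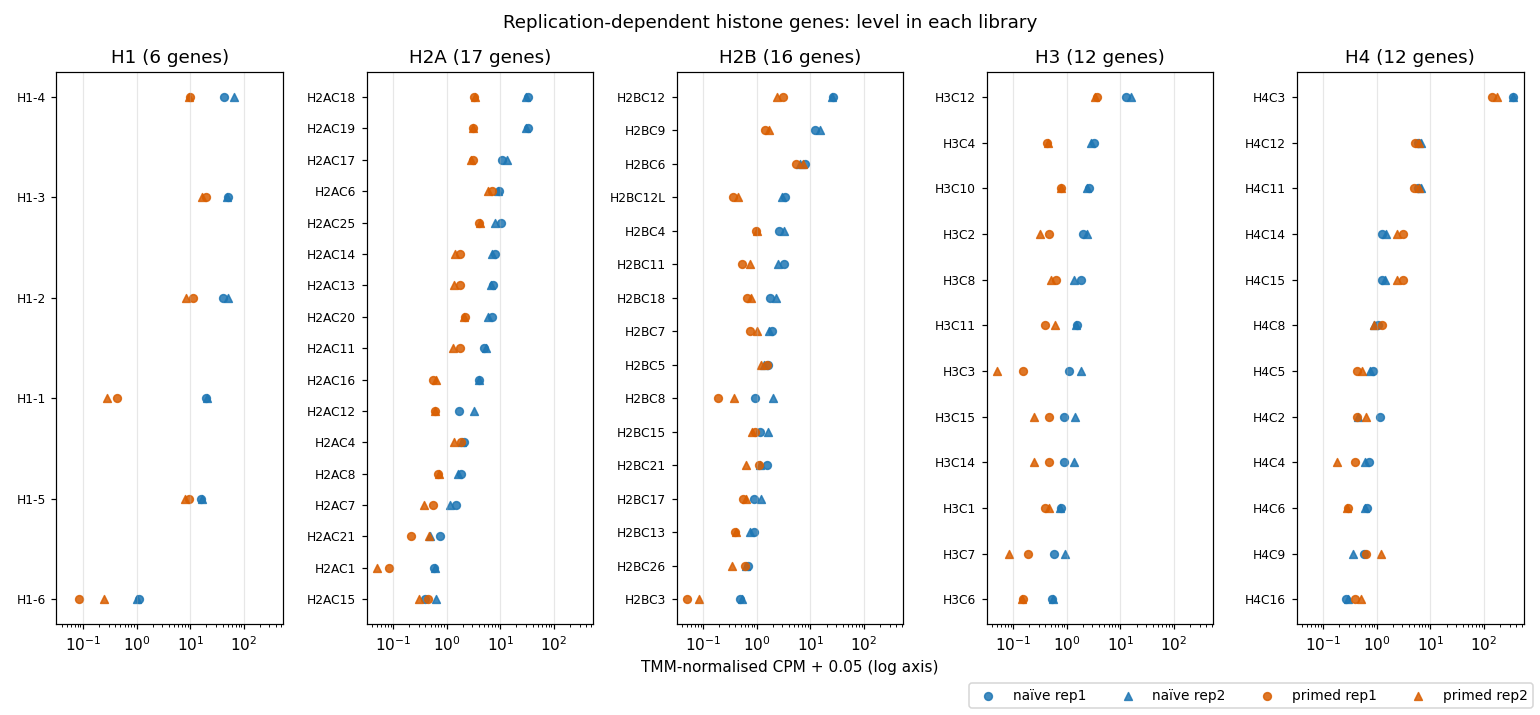
Level of each of the 63 tested histone genes in each library, in TMM-normalised CPM (counts scaled to a common library size) plus 0.05 on a log axis, 1 panel per histone type; blue symbols are naïve and orange symbols primed libraries, circles replicate 1 and triangles replicate 2. In the H1, H2A, H2B and H3 panels the blue symbols lie to the right in nearly every row, whereas in the H4 panel orange lies to the right for H4C14, H4C15, H4C9 and H4C16.

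The calls of members near 0 depended on the scaling. A change of scaling moves all genes by nearly the same amount, so the place of the members relative to other genes could hardly change. TMM scaling, a method that assumes most genes do not change, put the median of all genes at 0.08 and DESeq2 at 0.03, whereas plain library size put it at 0.72. Relative to that median the members stood at -1.69, -1.69 and -1.68, a value that a change of scaling leaves nearly fixed. Of the 63 members, 58 had a log2 fold change below 0 with TMM and with DESeq2, and 49 with library size. With library size, 37 members were called lower and 8 higher, and over all genes 4503 were lower and 15540 higher. Under each of these scalings, 58 of the 63 members lay below the median of all genes, and the 5 above it were all H4 genes (H4C8, H4C16, H4C14, H4C15 and H4C9), of which H4C16 had most of its counts outside its canonical transcript. Across 13 fits with other scalings, filters, transcript choices or 1 library left out, 37 members were called lower in every fit in which they were tested, and H4C14 and H4C15 were called higher.

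Linker histones H1, which bind the DNA entering and leaving the nucleosome, were all lower in primed. All 6 H1 genes were called, with a median log2 fold change of -2.36. H1-1 (chr6:26017032-26017787, minus strand) had 460 and 529 counts in naïve and 11 and 7 in primed. The raw counts of primed libraries weigh less than those of naïve ones, since the effective library sizes after TMM were 23045941 and 25485803 in naïve and 29408671 and 30642713 in primed. The states were thus far apart for H1-1, which was 66.9-fold lower in primed, the largest fitted difference of any member (log2 fold change -6.06, SE 0.26, adjusted p = 7.8e-24 by edgeR's quasi-likelihood test).

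The H1 genes with the most counts moved less. H1-4 (chr6:26156329-26157115, plus strand) had 986 and 1673 counts in naïve and 291 and 295 in primed, a 5.56-fold difference (log2 fold change -2.47, SE 0.17, adjusted p = 1.4e-16 by edgeR). H1-2 had 948 and 1311 against 332 and 256 counts (log2 fold change -2.24, SE 0.17). H1-3 had 1172 and 1249 against 574 and 513 counts (log2 fold change -1.46, SE 0.15). These 3 genes were called lower in each of the 13 fits. H1-5, with 357 and 422 against 281 and 239 counts, had the smallest difference of the type (log2 fold change -0.89, SE 0.17, adjusted p = 1.2e-05 by edgeR), and its call was lost with library size (-0.25, adjusted p = 0.20 by edgeR).

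The genes known from male germ cells were low in both states. H1-6, the testis linker histone, had 24 and 25 counts in naïve and 1 and 6 in primed (log2 fold change -3.07, SE 0.53, adjusted p = 2.4e-06 by edgeR). It lies inside the annotated span of H2BC4, but the H2BC4 transcript with the most counts does not reach it. H2AC1, the testis H2A, had 12 and 14 counts in naïve and 1 and 0 in primed, a ratio of 32.2 with an exact 95% interval from 5.29 to 1319 that covers counting error only. H2BC1, its divergent testis H2B partner, had 14 counts in 1 naïve library and 0 in the other 3, and was not tested.

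H2A forms a dimer with H2B on the outside of the nucleosome. Of the 17 H2A genes, 14 were lower in primed, none was higher and 3 were not called, with a median log2 fold change of -1.81. H2AC18 (chr1:149842218-149842750, minus strand) had 753 and 752 counts in naïve and 93 and 101 in primed (log2 fold change -3.26, SE 0.18, adjusted p = 3.0e-20 by edgeR). H2AC19, its copy on the opposite strand nearby (chr1:149851061-149851594, plus strand), had 747 and 752 against 91 and 94 counts (log2 fold change -3.33, SE 0.18). The canonical transcripts of H2AC18 and H2AC19 are 99.8% identical and reads aligning to both were counted for both, so the near-equal values are not separate evidence.

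The other abundant H2A genes were lower by smaller factors. H2AC17 had 244 and 339 counts in naïve and 90 and 85 in primed (log2 fold change -2.03, SE 0.20). H2AC14 had 183 and 176 against 51 and 42 counts (log2 fold change -2.25, SE 0.23), with its near copy H2AC13 (92.5% identical) at 168 and 167 against 51 and 40 counts (log2 fold change -2.18, SE 0.24). The largest difference among H2A genes with a mean of over 50 counts outside the H2AC18 pair was that of H2AC16, with 92 and 101 against 15 and 18 counts (log2 fold change -2.85, SE 0.30). H2AC21, H2AC15 and H2AC4 were not called, with log2 fold changes of -0.89 (SE 0.49), -0.50 (SE 0.48) and -0.35 (SE 0.29).

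H2B showed the same direction with a wider spread. Of its 16 tested genes, 11 were lower in primed, none was higher and 5 were not called, with a median log2 fold change of -1.35. H2BC12 (chr6:27146361-27146855, minus strand), whose promoter is shown above, had 617 and 639 counts in naïve and 90 and 71 in primed (log2 fold change -3.27, SE 0.19, adjusted p = 1.5e-19 by edgeR). H2BC9 (chr6:26251614-26252075, plus strand) had 278 and 378 against 41 and 50 counts (log2 fold change -3.15, SE 0.22, adjusted p = 6.9e-17 by edgeR). The states did not overlap for either gene, and both were called in every fit.

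H2BC12L, the copy without a stem-loop match, had 75 and 73 counts in naïve and 9 and 12 in primed (log2 fold change -3.11, SE 0.34). It is 92.3% identical to H2BC12 and lies within the gene HSF2BP, and whether its counts are reads of H2BC12 was not tested. H2BC3 had 10 and 12 counts in naïve and 0 and 1 in primed, a ratio of 27.2 with an exact 95% interval from 4.40 to 1123. At the other end, H2BC5 had 37 and 34 against 45 and 35 counts (log2 fold change -0.14, SE 0.31) and H2BC6 had 179 and 160 against 154 and 218 counts (log2 fold change -0.18, SE 0.20). Neither was called, and H2BC6 was called higher with library size (0.46, adjusted p = 0.045 by edgeR).

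H3 genes, whose protein carries the best known histone tail marks, were lower in 11 of 12 genes tested, with none higher and a median log2 fold change of -1.96. H3C1, the gene not called, had 17 and 18 counts in naïve and 10 and 13 in primed (log2 fold change -0.91, SE 0.43, adjusted p = 0.058 by edgeR). H3C4 (chr6:26196784-26197286, minus strand) had 73 and 71 against 11 and 12 counts (log2 fold change -2.94, SE 0.34, adjusted p = 3.6e-10 by edgeR). H3C2 had 45 and 60 against 12 and 8 counts (log2 fold change -2.68, SE 0.37). The lowest relative level in primed was that of H3C3, with 24 and 46 counts in naïve and 3 and 0 in primed, a ratio of 28.9 with an exact 95% interval from 9.48 to 143.

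The H3 gene with the most counts was counted over a span that crosses its neighbour. H3C12 had 290 and 408 counts in naïve and 105 and 103 in primed on a longer transcript, which runs across part of H2AC17. On its canonical transcript it had 43 and 60 counts in naïve and 6 and 4 in primed, and the log2 fold change went from -2.04 to -3.63. H3C14 and H3C15, a pair of copies on chromosome 1 with 99.2% identity, had 19 and 34 against 12 and 6 counts and 19 and 35 against 12 and 6 counts, with log2 fold changes of -1.84 and -1.87 (SE 0.44 each).

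H4 was the type whose genes were split in direction. Of the 12 H4 genes tested, 3 were lower in primed, 3 were higher and 6 were not called. The log2 fold change was below 0 for 7 of them. Their median log2 fold change was -0.16 and turned to 0.48 with library size. The summed H4 level, most of it from H4C3, was nonetheless lower in primed, at 177 CPM against 364 in naïve. In the other 4 types together, 42 of 51 genes were lower, none was higher and 9 were not called, with a median of -1.84, and all 51 log2 fold changes were below 0 under TMM. H4C3 (chr6:26103933-26104337, plus strand) had 8020 and 8773 counts in naïve and 4186 and 5421 in primed, a 2.17-fold difference (log2 fold change -1.12, SE 0.14, adjusted p = 5.6e-09 by edgeR). H4C3 lies inside the annotated span of H2BC4 on the opposite strand, and the counting did not use strand. The H2BC4 transcript with the most counts (chr6:26114873-26123910) does not reach H4C3, and it had 59 and 80 counts in naïve and 27 and 29 in primed.

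The H4 genes that were higher in primed had few counts. H4C14 had 28 and 36 counts in naïve and 89 and 70 in primed, 2.01-fold higher (log2 fold change 1.01, SE 0.29, adjusted p = 0.0019 by edgeR). H4C15 had 28 and 35 against 89 and 72 counts (log2 fold change 1.05, SE 0.28, adjusted p = 0.0013 by edgeR). The canonical transcripts of these 2 genes are identical in sequence, with the same 14 and 17 against 47 and 34 counts, so they count as 1 observation. H4C9 had 12 and 8 against 17 and 35 counts (log2 fold change 1.06, SE 0.44, adjusted p = 0.031 by edgeR). It was called higher in 8 of the 12 fits in which it was tested. Fits that lost its call included DESeq2 (adjusted p = 0.23) and those without primed rep2 or naïve rep2.

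The H4 pair H4C11 and H4C12, with 99.0% identity, was not called and its sign depended on the scaling. H4C11 (chr6:27824092-27824480, plus strand) had 134 and 165 counts in naïve and 146 and 185 in primed (log2 fold change -0.16, SE 0.20, adjusted p = 0.48 by edgeR). H4C12 had 136 and 165 against 149 and 185 counts. With library size, both were called higher, at 0.48. The other low H4 genes that were called were H4C4 with 15 and 14 against 10 and 4 counts and H4C6 with 14 and 14 against 7 and 7 counts. Both lost the call with DESeq2 (adjusted p = 0.15 and 0.16), with library size and without primed rep2, and H4C6 also without primed rep1. H4C4 was called lower in 8 of the 12 fits in which it was tested, and H4C6 in 6 of 10.

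**Figure D2:**
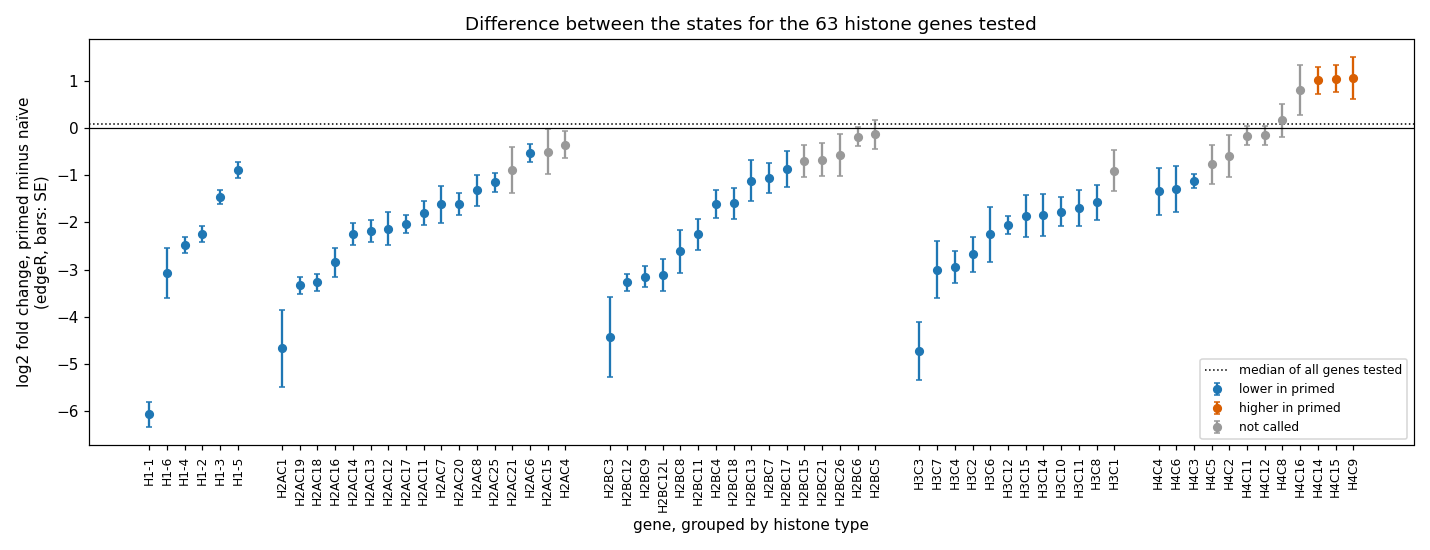
Fitted log2 fold change (primed minus naïve) of the 63 tested histone genes by type, with the standard error as bars; blue points were called lower and orange points higher in primed at an adjusted p under 0.05, grey points were not called, and the dotted line is the median of all genes (0.08). Points of H1, H2A, H2B and H3 all lie below 0, from -6.06 for H1-1 upward, while H4 spans -1.34 to 1.06.

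The 7 members that were not tested were H2BC1, H2BC10, H2BC14, H3C13, H4C1, H4C7 and H4C13. H4C7, whose predicted protein of 98 residues differs in length from the other H4 proteins, had 6 and 9 counts in naïve and 0 in both primed libraries. H2BC14 had 8 and 8 counts in naïve and 3 and 1 in primed. A count of 0 allows up to 3 counts, which is between 0.098 and 0.130 CPM in these libraries.

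Levels between genes were compared per length, as TMM-normalised CPM per kilobase of the canonical transcript. An alignment counted once whatever its length, so this measure raises the short H4 transcripts against the longer H1 transcripts. Without the division, H1-2 and H1-4 in primed stood at 9.82 and 9.76 CPM, above H4C11 and H4C12 at 5.50 and 5.55. In naïve, H4C3 then stood at 346 CPM and H1-4 at 54.2. H4C3 stood far above all other members, at 855 ± 6.6 in naïve (SD, n = 2) and 394 in primed. The next in naïve were H1-4 at 68.9 ± 20.5, H1-3 at 64.3 ± 1.7, H1-2 at 63.3 ± 9.97, H2AC18 at 58.3 ± 4.2, H2AC19 at 58.0 ± 3.8 and H2BC12 at 52.4 ± 2.4. The differences between neighbours among these were not tested. In primed, H4C3 was followed by H1-3 at 23.4, with H4C11 and H4C12 at 14.1 and 14.3, H1-2 at 13.4 and H1-4 at 12.4. H2AC18 and H2BC12 were at 6.06 and 5.43 there, and H1-1 went from 26.9 ± 0.7 in naïve to 0.40 in primed. No H3 gene exceeded 6 in either state, the highest being H3C4 at 5.92 ± 0.54 in naïve.

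**Figure D3:**
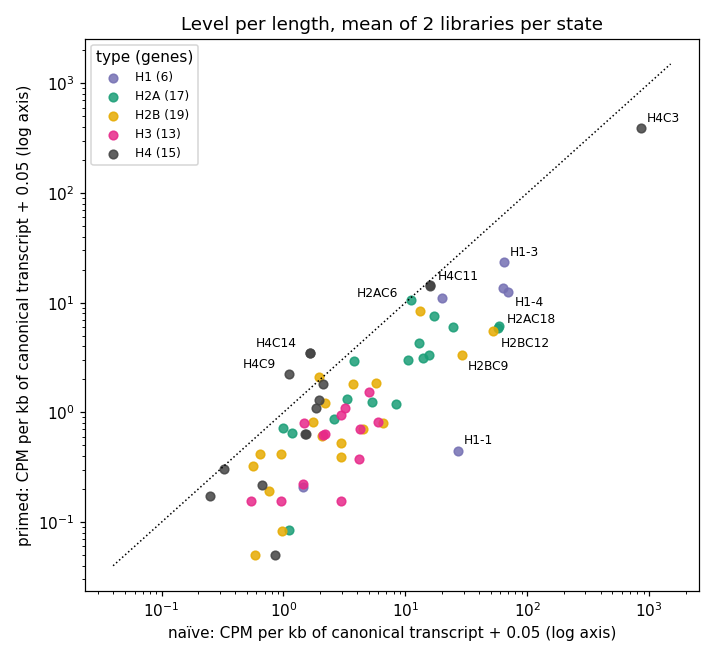
Mean level per length of all 70 histone genes in naïve (horizontal) and primed libraries (vertical), in CPM per kilobase of canonical transcript plus 0.05, both on log axes, coloured by type; the dotted line marks equal levels. H4C3 lies alone at the upper right, H1-1 far below the line, and H4C14 and H4C9 above it.

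The make-up of the summed histone counts therefore differed between the states. On canonical transcripts, the summed level of H1 was 188 ± 23.4 CPM in naïve and 46.8 ± 5.5 in primed, a ratio of 4.01. H2A went from 127 to 29.5 (4.31), H2B from 64.8 to 14.3 (4.54) and H3 from 18.4 to 3.79 (4.85). The ratios of these 4 types thus lay close together, while H4 had 364 ± 2.6 in naïve and 177 ± 25.6 in primed, a ratio of 2.06. H4C3 alone made up 46.3% and 44.5% of all member counts in naïve and 55.1% and 62.4% in primed. Without H4C3 the sum of the members was 417 ± 18.7 in naïve and 111 ± 6.6 in primed, a ratio of 3.74. The near-identical pairs enter these sums with both genes.

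The members were also grouped by their position in the genome. In the cluster at 6p22.2, 23 of 30 genes tested were lower, none was higher and the median log2 fold change was -1.59. In the cluster at 6p22.1, 14 of 19 were lower and 1 was higher, with a median of -1.77. At 1q21.2, 6 of 10 were lower and 2 were higher, with a median of -1.60, and these 2 were the identical H4C14 and H4C15. Of the 2 genes at 1q42.13, H2AC25 was lower with 235 and 200 against 116 and 127 counts (log2 fold change -1.15, SE 0.20), while its divergent partner H2BC26 had 15 and 15 against 16 and 9 counts and was not called. H4C16 on chromosome 12, the H4 gene away from the clusters, had 5 and 6 against 10 and 14 counts and was not called (log2 fold change 0.81, SE 0.53). On its canonical transcript H4C16 had 2 and 2 counts in naïve and 2 and 1 in primed, so most of the counts behind its value lay outside that transcript. H2BC12L on chromosome 21 was lower, as given above.

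H2A and H2B genes often lie head to head and share the DNA between their starts. The annotation held 12 such pairs, with 194 to 287 bases between the starts. Both partners were tested in 10 pairs and both were lower in primed in 7, which became 2 with library size and 6 on canonical transcripts. H2BC12 and H2AC12 had log2 fold changes of -3.27 (SE 0.19) and -2.14 (SE 0.35), H2BC11 and H2AC11 -2.25 (SE 0.32) and -1.81 (SE 0.25), and H2AC7 and H2BC7 -1.61 (SE 0.39) and -1.06 (SE 0.32). Partners were not equal throughout. H2AC17 stood at -2.03 (SE 0.20) against -0.87 (SE 0.39) for H2BC17, H2BC4 at -1.61 (SE 0.29) against -0.53 (SE 0.18) for H2AC6, and H2BC21 was not called at -0.67 (SE 0.35) while H2AC20 was lower at -1.61 (SE 0.23). The difference within a pair was not tested.

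CCAAT was present in 39 of 40 promoters of members lower in primed, in 9 of 15 of those not called and in 1 of 3 of those higher. Since all promoters of H1, H2A, H2B and H3 held CCAAT, these counts follow the types. The octamer was present in 18 of the 40 promoters of lower members, in 4 of 15 of those not called and in none of the 3 of higher members. No H1, H3 or H4 promoter held the octamer and the 3 higher members are all H4 genes, so these counts depend on the types too. Partners that lie head to head can share a motif, so these promoters are not all separate. TATAAA was present in 27 of 40, 10 of 15 and none of 3. Of the 3 promoters of higher members, those of H4C14 and H4C15 are identical in the 120 bases before the start.

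A few members also have longer annotated isoforms, and the alignments on them were not spread alike in the states. All 70 canonical transcripts are single exons, whereas 16 members had a longer isoform with a larger count, which was then the gene's value. For those where the canonical span lies inside the longer one, the share of counts outside the canonical transcript can be read directly. For H2BC6 this share was 12.3% and 11.9% in naïve and 35.1% and 36.7% in primed, with 95% Wilson intervals that did not overlap between the states. For H2BC18, 8 of 40 and 21 of 58 counts lay outside in naïve, against 13 of 18 (72.2%) and 17 of 22 (77.3%) in primed. H2AC6 went the other way, with 40.3% and 33.8% in naïve against 12.1% and 17.0% in primed, while for H2AC25 the share stayed between 2.55% and 6.90% in all 4 libraries. In H2BC26, with 9 to 16 counts per library, the states overlapped, with 4 of 15 and 6 of 15 counts outside in naïve against 12 of 16 and 3 of 9 in primed.

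The choice of transcript changed the calls of a few of these genes. On the canonical transcript alone, H2AC6 had 132 and 149 counts in naïve and 181 and 147 in primed, and its log2 fold change went from -0.53 (SE 0.18, adjusted p = 0.011 by edgeR) to -0.08 (adjusted p = 0.72). H2BC6 went from -0.18 to -0.64 and was then called lower (adjusted p = 0.0060 by edgeR). H2BC15 went from -0.71 to -1.85 (adjusted p = 0.00012 by edgeR) and H2BC18, lower either way, from -1.59 to -3.06. The count on canonical transcripts was 46 lower and 3 higher of 61 tested. The spans hold introns and ignore strand, and the long spans of H2BC18 and H2BC6 also overlap other annotated genes, so whether the outside counts are histone isoforms was not tested.

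**Figure D4:**
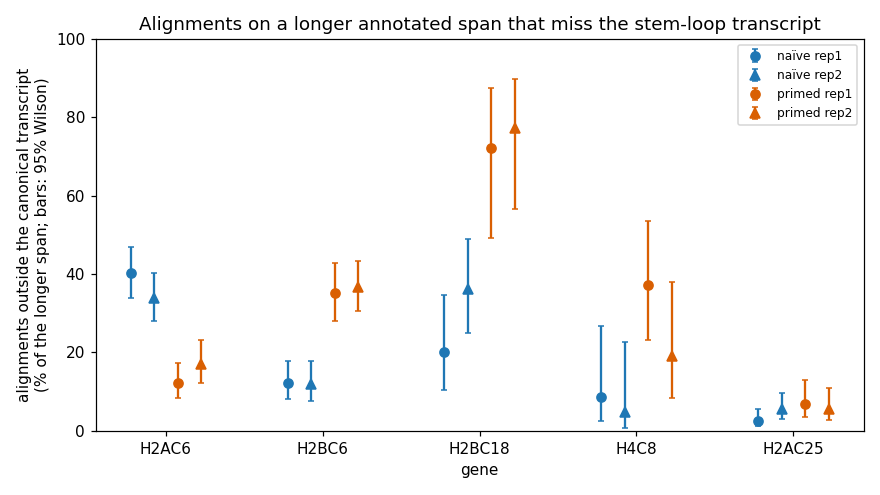
Share of the counts on a longer annotated isoform that miss the stem-loop-bearing canonical transcript, in percent, for 5 histone genes in each library; bars are 95% Wilson intervals for counting error, blue is naïve and orange primed. The share was higher in primed for H2BC6 and H2BC18, with intervals apart, and lower in primed for H2AC6; for H4C8 the intervals overlap between the states, and for H2AC25 the share was low in all 4 libraries.

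The genes that make histone mRNA were mixed. Of a list of 23 genes for transcription and 3′ processing, all tested, 11 were lower in primed, 3 were higher and 9 were not called. Among all genes tested, 32.6% were called lower and 37.4% higher. The list had a median log2 fold change of -0.27 (0.37 with library size, where the median of all genes was 0.72, and 5 listed genes were lower and 10 higher). CCNE1 and CDK2, the cyclin E and kinase that phosphorylate the histone gene activator NPAT, were among the lowest. CCNE1 had 312 and 304 counts in naïve and 43 and 38 in primed (log2 fold change -3.23, SE 0.22, adjusted p = 4.8e-17 by edgeR) and CDK2 465 and 544 against 115 and 118 (log2 fold change -2.42, SE 0.18). SLBP, the stem-loop binding protein, had 461 and 666 against 306 and 271 counts (log2 fold change -1.26, SE 0.17, adjusted p = 1.0e-08 by edgeR). NPAT itself was higher, with 152 and 186 against 264 and 297 counts (log2 fold change 0.43, SE 0.18, adjusted p = 0.034 by edgeR), as were CASP8AP2, also known as FLASH, at 0.83 (SE 0.16) and CPSF3, the endonuclease that cuts the pre-mRNA, at 0.92 (SE 0.16).

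Histone genes listed as replication-independent variants were mixed in direction. Of 14 tested of a list of 27, 7 were lower in primed, 5 were higher and 2 were not called, beside 32.6% lower and 37.4% higher among all genes. The listed variants had a median log2 fold change of -0.40 (0.24 with library size, with 6 lower and 7 higher). The lowest were H3Y1, a primate H3 variant with 38 and 31 counts in naïve and 0 in both primed libraries, at least 28.5-fold lower against 3 counts over the state, and H3-7, with 24 and 43 against 5 and 9 counts (log2 fold change -2.54, SE 0.44). MACROH2A2, a macroH2A found on silent chromatin, had 32 and 63 against 193 and 200 counts (log2 fold change 1.75, SE 0.24, adjusted p = 2.6e-08 by edgeR).

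Histone chaperones, which carry new histones to the DNA, had 8 of 22 genes lower, 8 higher and 6 not called, shares near those of all genes (32.6% lower and 37.4% higher), and a median log2 fold change of 0.04 (0.68 with library size, with 2 lower and 14 higher). SPTY2D1 had 599 and 899 counts in naïve and 244 and 213 in primed (log2 fold change -2.01, SE 0.17) and DAXX, which deposits H3.3, stood at -1.60 (SE 0.15). ASF1B, the chaperone of H3 and H4 in proliferating cells, had 120 and 105 against 358 and 359 counts (log2 fold change 1.36, SE 0.19, adjusted p = 2.6e-08 by edgeR), and TONSL stood at 1.32 (SE 0.33).

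Genes of DNA replication and S phase were lower in primed in 15 of 39 genes, higher in 6 and not called in 18, beside 32.6% lower and 37.4% higher among all genes, with a median of -0.31 (0.33 with library size, with 4 lower and 18 higher). Their differences were smaller than those of most histone genes. The lowest was MCM10, with 700 and 816 counts in naïve and 335 and 347 in primed (log2 fold change -1.46, SE 0.16), followed by GINS3 at -1.34 (SE 0.20). The highest was GINS1, with 313 and 276 against 609 and 634 counts (log2 fold change 0.76, SE 0.16), followed by GINS4 at 0.56 (SE 0.17). Their part in the histone result was not tested.

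RNAs without a poly(A) tail moved with the histone genes. Of 8 such RNAs tested from a list of 12, 6 were lower in primed, 1 was higher and 1 was not called. Among all genes, 32.6% were called lower and 37.4% higher. These RNAs had a median log2 fold change of -1.78, and their summed level was 235 and 224 CPM in naïve against 56.5 and 75.3 in primed. RN7SL1, the RNA of the signal recognition particle, had 2558 and 2642 counts in naïve and 776 and 1086 in primed (log2 fold change -1.79, SE 0.15, adjusted p = 9.8e-14 by edgeR), and the values of RN7SL2, a related RNA of that particle, were near equal at 2597 and 2733 against 821 and 1125 counts. Both entered the count and the sum, of which they held the larger part, and whether they share reads was not tested. RMRP stood at -3.01 (SE 0.38) and RN7SK at -2.58 (SE 0.24), while RNU4ATAC, with 2 and 3 against 10 and 10 counts, was higher at 1.65 (SE 0.65). The methods and labels used here state total RNA as the molecule and do not say how the cDNA was primed. Since histone mRNAs also lack the tail, how far the capture of tail-less RNA differed between the states was not tested.

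**Figure D5:**
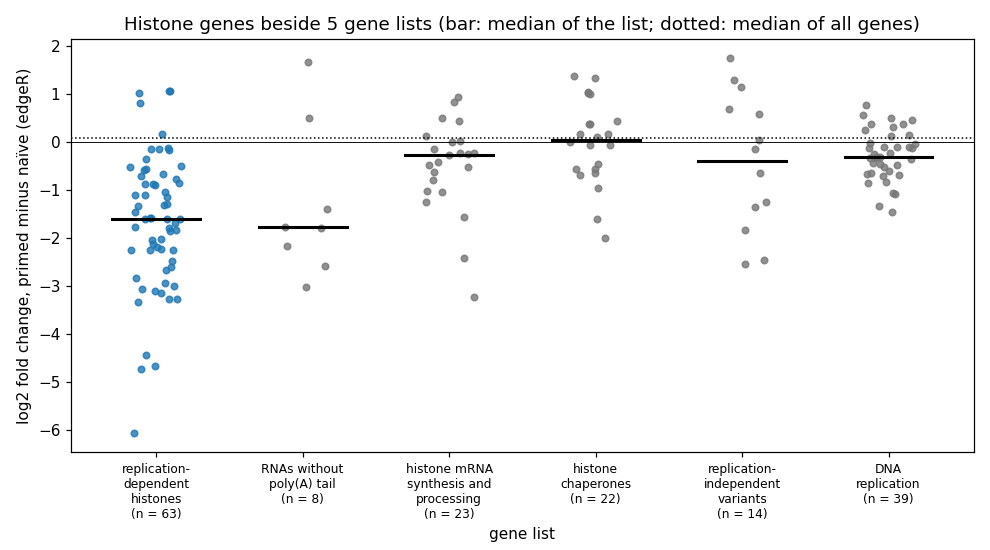
Fitted log2 fold change (primed minus naïve) of each tested gene in 6 sets, with the replication-dependent histone genes in blue; points are spread sideways for visibility, black bars are the median of each set, and the dotted line is the median of all genes (0.08). H3Y1, with 0 counts in primed, is in the median and not drawn; the histone genes (-1.61) and the RNAs without a poly(A) tail (-1.78) have the lowest medians, and the other 4 lie between -0.40 and 0.04.

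Markers of each labelled state were higher in that state, and the naïve libraries also held markers of another cell type. All 8 markers of the naïve state, such as DPPA5 and DNMT3L, were lower (7 with library size, KLF17 being 1.32-fold lower under TMM) and all 8 markers of the primed state higher in primed, with THY1 and SFRP2 at 0 counts in both naïve libraries. Of 10 trophoblast markers, 9 were lower in primed, none was at 0 in all libraries, and their summed level was 1750 and 2104 CPM in naïve against 9.42 and 10.1 in primed. The trophoblast gene CGA alone had 35747 and 47550 counts in naïve and 0 and 1 in primed. The part of such cells in the histone result was not tested.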

How the data were processed

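Per the labels and file headers, the authors aligned Nanopore cDNA reads to GRCh38 with minimap2 and counted them with featureCounts 2.0.0 on Ensembl release 105. The deposited values are raw counts of alignments per transcript, without normalization. Counting covered the full span of a transcript, with introns and without strand, and an alignment counted for every transcript it overlapped (-O) and at every place it aligned (-M). Counts of overlapping or near-identical genes are therefore shared. Totals ranged from 129276054 to 161548901 counts per library.

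Symbols came from GENCODE release 44, which held 242542 of the 244825 transcript identifiers, and the others, with 1.0% of the counts, were left out. A gene took the count of its transcript with the largest mean count. A minimum of 10 counts in 2 or more libraries was set, and the genes above it were tested with edgeR 4.0.16 in R 4.3.3 (TMM, quasi-likelihood, state as the only term, two-sided, Benjamini-Hochberg over all genes, call at an adjusted p under 0.05; common biological coefficient of variation 0.112). Standard errors are the log2 fold change divided by the root of the F statistic. Identity between transcripts was computed with edlib in Python 3.11.15 (pandas 2.3.3). The fit was tested on simulated data. The motif search and sequences used GRCh38 and RefSeq promoters, for a gene with several entries the one nearest its canonical start.

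Members and lists were chosen with earlier results of these data known. Named genes were members past the count filter, with full statistics for called members with a mean count of at least 50 in order of fold change, the member with the highest level per length in each type, germ cell members, near-identical pairs and the smallest change in each type, and up to 4 genes of each list beside SLBP and NPAT. The low-count ratios, H3C12, H2AC6, H2BC15, H2BC18, H4C4, H4C6 and H4C16 were singled out after their values were seen. The alternatives were DESeq2 1.42.0, library size in place of TMM, a replicate block, no filter, at least 50 counts, other transcript choices, a log2 fold change of at least 1 and each library left out. The values of 1 listed gene that the rule would name are not reported here.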

Additional observations from a re-analysis of the deposited data

How the results depend on the processing

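The 45 members called lower and 3 called higher became 41 and 2 with DESeq2, 44 and 3 with the replicate number as a block, 47 and 3 with no count filter, 42 and 3 with a log2 fold change of at least 1, 46 and 3 on canonical transcripts, 45 and 3 on the shortest coding transcript and 42 and 2 with counts summed over transcripts. With near-identical pairs counted once, an alternative chosen after seeing the data, they were 43 and 2. With at least 50 counts, 24 were lower and 2 higher of 29 tested (H2B 5, H3 3 and H4 1 lower), because fewer genes were tested. With library size in place of TMM, 37 were lower and 8 higher (H2B 1 and H4 7 higher, H4 1 lower), over all genes 4503 lower and 15540 higher, and DESeq2 and the fit without primed rep2 left 1 H4 gene lower. A log2 fold change of at least 1 left 5120 of all genes lower. The median log2 fold change of the members was -0.97 with library size, -1.66 with DESeq2, -1.94 with at least 50 counts, -1.70 on canonical and -1.64 on shortest transcripts. With each library left out, 38 to 40 members were lower, 2 to 3 were higher, 1 to 3 H4 genes were lower and the median was between -1.33 and -1.59; a state then has 1 library, assumed to vary like the other state. The H4 median turned to 0.48 with library size and ran from -0.14 (without primed rep2) to 0.23 (without naïve rep1) with a library left out, with 0.07 without primed rep1.

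Of the values of single members under the alternatives, 632 kept direction and side of the threshold, 36 lost the call, 11 gained one and 21 changed sign. With library size the sign changed for H2AC15 (0.13), H2AC4 (0.29), H2AC6 (0.11), H2BC26 (0.07), H2BC5 (0.50), H2BC6 (0.46), H4C11 (0.48), H4C12 (0.48) and H4C2 (0.053). With a library left out, the values ran from -0.50 to 0.016 for H2AC4 and from -0.33 to 0.23 for H2BC5 (highest without primed rep2), from -0.39 to 0.19 for H2BC6, -0.29 to 0.14 for H4C11 and -0.28 to 0.13 for H4C12 (highest without primed rep1), from -1.22 to 0.23 for H4C2 (highest without naïve rep1) and from -0.031 to 0.55 for H4C8 (lowest without naïve rep2). On canonical transcripts it changed for H2BC5 (0.10) and H4C8 (-0.24), on shortest transcripts for H2BC5 (0.16) and H4C8 (-0.18), and with sums for H4C8 (-0.05). The list medians turned with library size for histone mRNA processing (0.37), variants (0.24) and S phase (0.33). That of the chaperones turned with DESeq2 (-0.0039) and sums (-0.055) and ran from -0.076 (without naïve rep1) to 0.32 with a library left out, and that of the variants turned with at least 50 counts (0.046) and ran from -0.30 to 0.12 (without naïve rep2). The cause was not tested.

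The labels give both states the replicate numbers 1 and 2, but the deviations of same-numbered libraries correlated at 0.041, so the numbers were not taken to pair libraries; with the replicate block, 44 members were lower and 3 higher, with a median of -1.61. With 2 libraries per state, genes of few counts, among them most H4 genes, are tested with little precision, and intervals and floors cover counting error only.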
